A study of Mus musculus with 6 samples.

Results

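Acot2 and Slc27a1 are genes of fatty acid handling that were both lower in Bv2, a mouse microglial cell line that grows without limit, after oxygen and glucose deprivation with reperfusion (OGD/R) than in control cells. They are 2 of 1228 genes in the deposited table and were picked by name with their difference between the groups already known, so their values are given as a description, with no test. All 6 samples are wild-type Bv2 cells in culture, 3 of control cells and 3 of cells kept for 2 h at 1% oxygen in medium free of glucose and serum and then returned to standard medium for 24 h. The labels speak of an infection before the deprivation without saying which samples had it, and are silent on medium changes in control cultures, so an infection or medium change in 1 group only and OGD/R cannot be told apart. Nothing states that replicates came from separate cultures, so spreads and p-values reflect these samples only and may be technical. In RNA from whole cultures, fewer cells of a kind and less RNA per cell cannot be told apart.

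Fatty acids enter cells with the help of transport proteins and are activated by coupling to coenzyme A. The activated forms, acyl-CoAs, can be burned in mitochondria, built into membranes or stored in lipid droplets. Acyl-CoA thioesterases undo the activation by releasing the free fatty acid. Slc27a1 encodes FATP1, a fatty acid transport protein that also has acyl-CoA synthetase activity. Acot2 encodes a mitochondrial acyl-CoA thioesterase for long-chain acyl-CoAs. Microglia, the resident macrophages of the brain, take up and store lipid, for instance in lipid droplets after injury.

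Acot2, ENSMUSG00000021226, spans 83987861 to 83993873 of chromosome 12 (GRCm38, plus strand), in 3 exons. It has a cytosolic paralog, Acot1, on the same strand from 84009490 to 84018371, which is not analysed here. Because reads from such a pair can be confused, the sequences that tell them apart are shown. The first 120 coding bases of Acot2, in exon 1 at chr12:83987902-83988021 in GENCODE M21, hold no stretch of 50 bases that occurs in an annotated transcript of another gene:
Acot2 coding start: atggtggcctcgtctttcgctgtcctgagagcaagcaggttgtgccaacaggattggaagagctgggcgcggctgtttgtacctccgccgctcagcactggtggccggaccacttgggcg
Over 1239 aligned coding bases the genes were 95.5% identical, with 56 differences. The 60-base stretch with the most differences, 13, lies in exon 3 of both genes, at chr12:83992664-83992723 in Acot2 and chr12:84016942-84017001 in Acot1, and is shown with the differing bases in capitals:
Acot2: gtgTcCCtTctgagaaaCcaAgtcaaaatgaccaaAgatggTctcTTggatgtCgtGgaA
Acot1: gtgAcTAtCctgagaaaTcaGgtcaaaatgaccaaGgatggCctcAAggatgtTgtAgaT
The median stretch of 60 aligned bases had 2 differences, and the longest identical run was 273 bases.

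How much of Acot2 occurs exactly in another annotated gene was counted directly. Of the 2047 windows of 150 nt, the read length, in the 2196-nt Acot2 transcript, 209 (10.2%) occurred exactly in another annotated gene, and that gene was Acot1 in each case. With windows of 100 nt the share was 17.1%, again with Acot1 alone, and with 50 nt it was 27.7%, with 10 genes. All shared windows of 150 and 100 nt lay in the coding part, where they were 209 of 1213 and 359 of 1263 windows. The other Acot genes of the cluster, Acot3 to Acot6, were 74.3% to 83.9% identical to Acot2 over their aligned coding bases and had no 150-nt window in common with it. Most windows of Acot2 at the full read length therefore had no exact copy in another annotated gene. Windows that nearly match Acot1 were not counted as shared. The treatment during counting of reads that match both genes, exactly or nearly, is unknown.

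**Figure D1:**
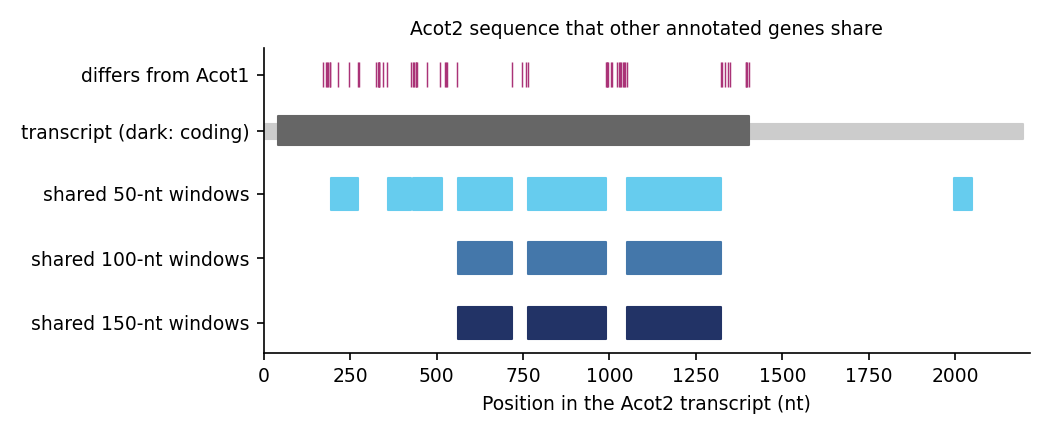
Position along the Acot2 transcript (x axis, nt) of bases that differ from Acot1 in the coding alignment (top ticks), of the coding part (dark bar), and of stretches made of 50-, 100- or 150-nt windows that occur exactly in another annotated gene. The 150-nt windows fall in 3 stretches of 158, 225 and 273 nt, all inside the coding part.

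Slc27a1, ENSMUSG00000031808, spans 71568882 to 71587302 of chromosome 8 (GRCm38, plus strand), and its main coding transcript has 14 exons. None of its 2646 windows of 150 nt, nor its 2696 windows of 100 nt, occurred in another annotated gene, while 48 of its 50-nt windows (1.75%), all outside the coding part, occurred in 176 genes. Its closest relative of the Slc27 family, Slc27a4, was 65.4% identical over the aligned coding bases. No annotated gene overlaps Acot2 or Slc27a1 on either strand. The exons of all annotated Slc27a1 transcripts, retained introns included, cover 5835 nt, against 2795 nt in the main coding transcript. FPKM divides by length, so its printed level depends on which length was used, while its ratio between groups does not.

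Acot2 stood at 40.16, 26.18 and 23.22 FPKM in control replicates 1, 2 and 3. In the OGD/R replicates it was at 5.05, 6.40 and 3.15 FPKM. Every OGD/R library was below every control library, and control replicate 1 was the high one. The group means were 29.9 ± 9.05 and 4.87 ± 1.63 FPKM (SD, n = 3), so 16.3% of the control level was left, a 6.13-fold lower mean. The lowest control value was 3.63-fold above the highest OGD/R value, and the highest control value 12.7-fold above the lowest. On the log2(FPKM + 1) scale the difference was -2.40. Groups that do not overlap are the rule here: 94.9% of the 1228 genes had groups apart, 46.5% with OGD/R as the lower group and 48.4% with OGD/R as the higher, so nothing is read from that separation.

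Slc27a1 was more abundant, at 78.09, 90.99 and 87.92 FPKM in control replicates 1, 2 and 3. After OGD/R it was at 42.77, 40.28 and 47.61 FPKM. These groups did not overlap either, and the libraries of each group lay close together. The means were 85.7 ± 6.74 and 43.6 ± 3.73 FPKM (SD, n = 3), which left 50.8% of the control level, a 1.97-fold lower mean and a difference of -0.96 on the log2(FPKM + 1) scale.

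**Figure D2:**
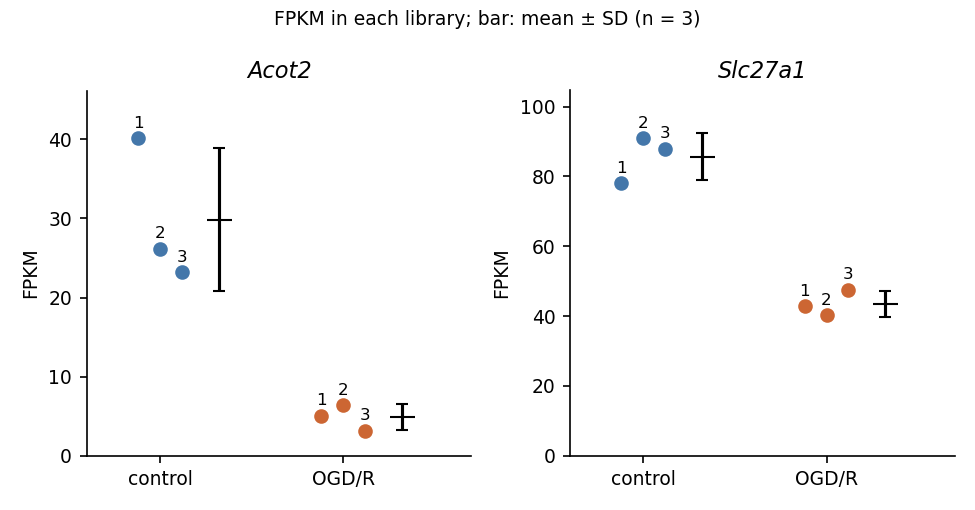
FPKM (y axis, from 0) of Acot2 and Slc27a1 in each control (blue) and OGD/R (orange) library, labelled with the replicate number, with the mean and SD of each group (n = 3) in black. Acot2 lies at 23.22 to 40.16 FPKM in control and 3.15 to 6.40 FPKM in OGD/R libraries, and Slc27a1 at 78.09 to 90.99 and 40.28 to 47.61 FPKM.

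The genes differed in how firmly their levels were measured. Steps between low FPKM values place Acot2 at 676, 474 and 389 counted units (reads or read pairs) in the control libraries and 89, 119 and 60 in the OGD/R libraries. The exact 95% Poisson interval, which covers counting error only, was 45.8 to 77.2 units for the lowest of these, OGD/R replicate 3. Counting alone gives an error of 3.8% to 5.1% in control and 9.2% to 12.9% in OGD/R libraries. The SD between libraries was larger, 30.3% of the mean in control and 33.5% in OGD/R. Slc27a1 had 3493 to 4379 units in control and 1990 to 2407 in OGD/R libraries, if all annotated exons were counted. Its counting error was 1.5% to 2.2%, and the SD between libraries 7.87% and 8.56% of the mean.

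In the table, Acot2 ranked 97th and Slc27a1 618th of 623 lower genes when ordered by the share of the control level left, lowest first. Slc27a1 thus had one of the smallest differences among the lower genes of the table, which holds no gene with a log2 ratio (OGD/R over control) between -0.97 and 1.03. Counted as FPKM lost, the order of the members turns: Slc27a1 lost 42.1 FPKM, the 43rd largest loss of the table, and Acot2 25.0 FPKM, the 66th. By control level Slc27a1 ranked 33rd of 1228 genes and Acot2 103rd, and by OGD/R level 54th and 408th. The ratio of Slc27a1 to Acot2 in FPKM was 1.94, 3.48 and 3.79 in control replicates 1 to 3 and 8.47, 6.29 and 15.1 in OGD/R replicates 1 to 3. Acot2 made up the smaller part of the pair in every library, and a smaller one in each OGD/R library than in any control library. Per spliced length the Slc27a1 means would be 179 and 90.9 FPKM, 2.09 times as high, if all its units came from the main coding transcript.

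**Figure D3:**
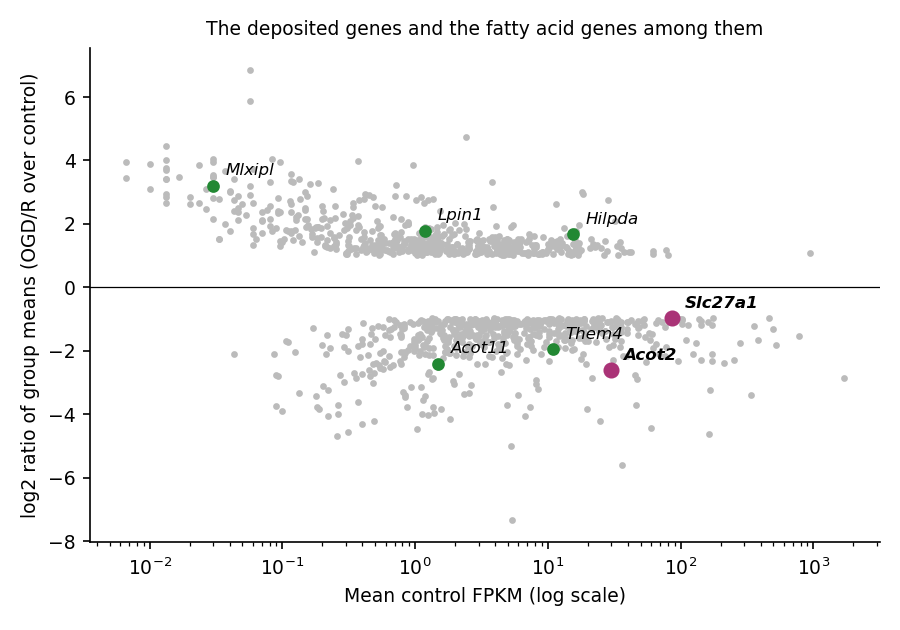
Mean control FPKM (x axis, log scale) against the log2 ratio of group means, OGD/R over control (y axis), for the 1184 genes with a mean above 0 in both groups. Acot2 and Slc27a1 (purple) and the other listed fatty acid genes (green) are named, and Slc27a1 lies on the inner edge of the lower genes, at 50.8% of its control level.

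Within the groups, the extreme libraries of the members were opposite. Control replicate 1 was the highest for Acot2 and the lowest for Slc27a1, and OGD/R replicate 3 was the lowest for Acot2 and the highest for Slc27a1. Many genes share the order of Slc27a1: of 852 genes with a mean of at least 1 FPKM, 53.4% were lowest in control replicate 1 among controls and 46.5% highest in OGD/R replicate 3 among OGD/R libraries. Only 29.1% were highest in control replicate 1 and 31.3% lowest in OGD/R replicate 3, as Acot2 was. The part of these libraries' overall differences in the Acot2 values was not tested.

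The genes whose profile over the 6 libraries was most like that of Acot2 were genes of protein folding and disposal in the endoplasmic reticulum. Likeness was the root mean square difference of log2(FPKM + 1), each gene centred on its own mean, over 632 genes with a symbol, and it depends mostly on the size of the difference between the groups. The nearest was Pdia4, a protein disulfide isomerase, at a difference of 0.23. It stood at 264.66, 233.41 and 251.83 FPKM in control replicates 1 to 3 and 53.83, 58.24 and 41.56 in OGD/R replicates 1 to 3. Hyou1, a large chaperone of the endoplasmic reticulum, followed at 0.24, with 208.65, 150.52 and 160.65 FPKM in control and 44.83, 43.12 and 32.64 in OGD/R libraries. Sel1l, an adaptor of the degradation machinery of that compartment, Sdf2l1, a chaperone cofactor, and Dnajc3, a co-chaperone, were at 0.28, 0.33 and 0.34. All 5 were lowest in OGD/R replicate 3, as Acot2 was, and Pdia4, Hyou1 and Sel1l were also highest in control replicate 1. These genes were chosen by their values in the same libraries, so nothing is read from the shared order. The median over all tested genes was 1.07 from Acot2, and Slc27a1 was at 0.84.

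Slc27a1 had closer neighbours of varied roles. Rchy1, a ubiquitin ligase, was at 0.0498, with 12.31, 15.59 and 15.15 FPKM in control and 6.60, 5.82 and 7.59 in OGD/R replicates 1 to 3. Nktr, a cyclophilin-related protein, was at 0.0562, Usp18, which removes the ubiquitin-like protein ISG15, at 0.0583, and the growth factor gene Csf1 at 0.0589. Each of these 4 was lowest in control replicate 1 and highest in OGD/R replicate 3 within its group, as Slc27a1 was. The choice by profile favours such a shared order, so nothing is read from it. The median over all tested genes was 0.74 from Slc27a1.

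**Figure D4:**
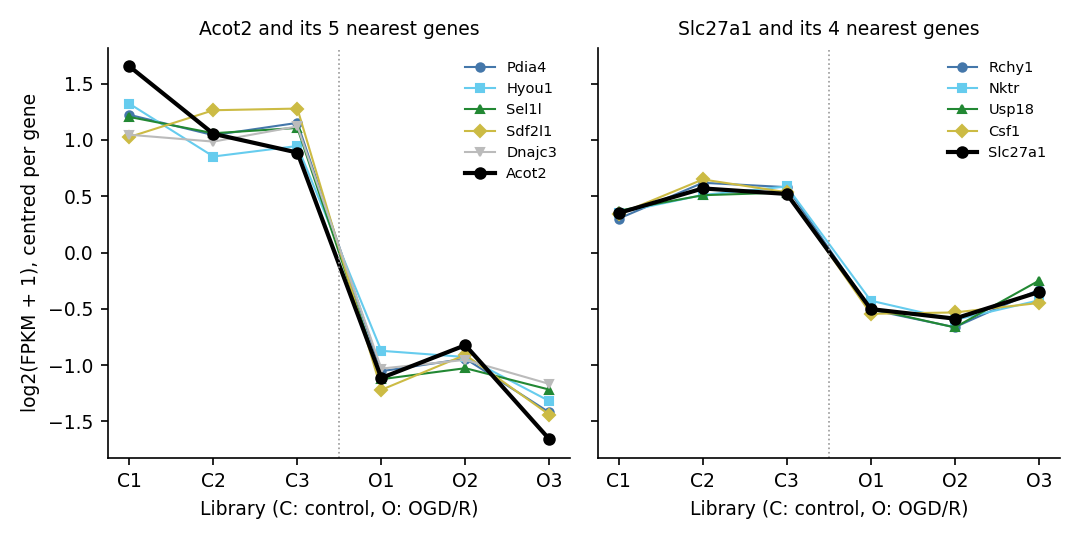
log2(FPKM + 1), centred on each gene's mean (y axis), in control libraries C1 to C3 and OGD/R libraries O1 to O3 (x axis) for Acot2 (left, black) with the 5 genes of most similar profile, and for Slc27a1 (right, black) with the 4 of most similar profile. Acot2 and its neighbours Pdia4, Hyou1, Sel1l, Sdf2l1 and Dnajc3 span a wider range than Slc27a1 and its neighbours, and control replicate 1 is the highest of Acot2 and the lowest of Slc27a1 among controls.

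Beside the members, 190 other genes of fatty acid metabolism were listed by role, and 6 of them were in the table. A minimum mean of 1 FPKM left 3 to be tested, and 2 rose and 1 fell after OGD/R (limma, adjusted p under 0.05 over 852 genes). In the same fit 97.3% of the 852 genes were called, 46.6% higher and 50.7% lower, so a call carries no information here beyond the direction and size. The log2 fold changes of the 3 were -1.64 (Them4), 1.23 (Lpin1) and 1.62 (Hilpda), too few and too unlike to give the set a direction. No listed gene of the other transporters and binding proteins (18), acyl-CoA synthetases (14), the carnitine shuttle (11), mitochondrial (26) or peroxisomal (18) oxidation, or synthesis and desaturation (27) was in the table. Such genes are not analysed here, and their levels are unknown.

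Among the thioesterases other than Acot2, 2 of 17 were in the table, and both had lower values after OGD/R. In 46.5% of the 1228 genes every OGD/R value lay below every control value, so nothing is read from the shared direction. Them4, a mitochondrial acyl-CoA thioesterase, fell from 9.37, 12.02 and 11.17 FPKM in control replicates 1 to 3 to 2.51, 2.76 and 3.13 in OGD/R replicates 1 to 3. All OGD/R values lay below all control values, with a log2 fold change of -1.64 ± 0.13 (SE; limma, adjusted p = 0.00011). Acot11, a thioesterase with a lipid-binding START domain, stood at 1.49, 1.40 and 1.60 FPKM in control and 0.31, 0.29 and 0.25 in OGD/R libraries. Its mean was under the minimum, so it was not tested, and its OGD/R values rest on 13 to 15 counted units each. The group means of the 3 thioesterases were thus 6.13-fold (Acot2), 3.88-fold (Them4) and 5.28-fold (Acot11) lower, with Acot2 the most abundant per length.

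Of 33 listed genes of fat storage, Hilpda and Lpin1 were in the table and both rose, where 46.6% of all tested genes were called higher. Hilpda, a lipid droplet protein that restrains fat breakdown and is known as a hypoxia-induced gene, rose from 10.17, 18.36 and 17.59 FPKM in control replicates 1 to 3 to 38.16, 42.40 and 67.70 in OGD/R replicates 1 to 3. Control replicate 1 was the low one and OGD/R replicate 3 the high one, and the log2 fold change was 1.62 ± 0.29 (SE; limma, adjusted p = 0.0018). Lpin1, a phosphatidate phosphatase of triglyceride synthesis, rose from 1.19 ± 0.196 to 4.13 ± 0.191 FPKM (SD, n = 3), a log2 fold change of 1.23 ± 0.11 (SE; limma, adjusted p = 0.00015). Of 26 regulators, Mlxipl, a glucose-responsive transcription factor of fat synthesis, had 0.00, 0.07 and 0.02 FPKM in control and 0.29, 0.21 and 0.33 in OGD/R libraries, and Nr4a3 was listed at 0 in all control libraries and at 0.10, 0.06 and 0.08 FPKM in OGD/R libraries. Both were too low to be tested.

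**Figure D5:**
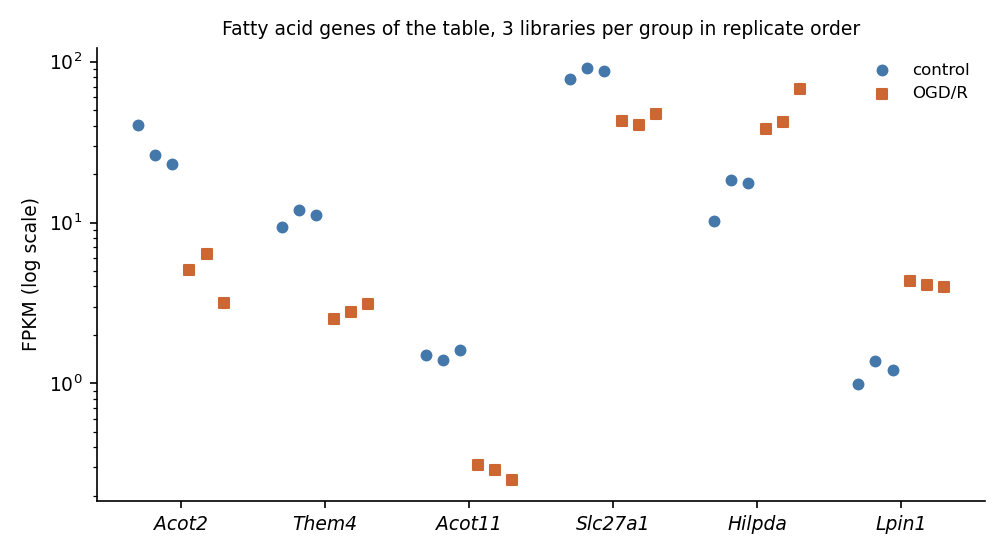
FPKM (y axis, log scale) of Acot2, Slc27a1 and the 4 other fatty acid genes with the highest levels, for control (blue circles) and OGD/R (orange squares) replicates 1 to 3 from left to right. Acot2, Them4, Acot11 and Slc27a1 are lower and Hilpda and Lpin1 higher in each OGD/R library than in any control library.

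The promoters of the members are shown because both genes were lower in the same libraries. They run from 250 bases before to 50 after a start site of RefSeq, GRCm38.p6, and capitals mark matches to the motifs searched. For Acot2 the window is chr12:83987611-83987910 on the plus strand:
Acot2 promoter: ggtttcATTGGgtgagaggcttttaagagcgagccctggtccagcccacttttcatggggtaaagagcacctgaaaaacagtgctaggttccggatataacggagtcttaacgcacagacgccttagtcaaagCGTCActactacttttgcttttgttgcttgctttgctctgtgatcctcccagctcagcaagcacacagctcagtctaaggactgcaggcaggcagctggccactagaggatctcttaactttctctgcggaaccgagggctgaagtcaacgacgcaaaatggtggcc
For Slc27a1, the most upstream of 3 RefSeq start sites gives chr8:71568621-71568920, also on the plus strand:
Slc27a1 promoter: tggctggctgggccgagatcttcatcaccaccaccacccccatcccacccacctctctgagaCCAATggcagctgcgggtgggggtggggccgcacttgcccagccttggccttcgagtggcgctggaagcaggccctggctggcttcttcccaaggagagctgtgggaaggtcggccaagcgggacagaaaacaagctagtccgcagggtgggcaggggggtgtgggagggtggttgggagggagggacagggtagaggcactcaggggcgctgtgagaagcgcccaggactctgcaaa
On both strands, the motifs were the CCAAT box (CCAAT), the half-site of the cyclic AMP response element (TGACG), the core bound by ATF4 with a C/EBP factor (TGATGNAA), the E-box (CACGTG), the PPAR direct repeat (AGGTCA, any 1 base, AGGTCA) and the endoplasmic reticulum stress response element (CCAAT, any 9 bases, CCACG), which includes a CCAAT box. The Acot2 window held a CCAAT box and a TGACG half-site, both on the opposite strand. The printed Slc27a1 window held a CCAAT box. Of its other start sites, the window at chr8:71570344-71570643 held a CCAAT box and an E-box, and that at chr8:71569347-71569646 held no match. Of 32851 mouse promoter windows of 300 bases, 37.4% held a CCAAT box, 20.8% a TGACG and 7.15% an E-box. The ATF4 and C/EBP core, in 3.97% of all windows, and the PPAR direct repeat, in 0.04%, had no match in any window of the members. The stress response element, in 0.119% of all windows, had no match in the Acot2 window or in any of the 3 Slc27a1 windows. Among the genes nearest to Acot2, windows were at hand for Pdia4, Sel1l, Sdf2l1 and Dnajc3 and the element matched in Dnajc3, at chr14:118937827-118937845.

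In base composition, which the choice of the genes did not use, both members were nearer to the lower than to the higher genes of the table. The GC content of the longest annotated transcript was 53.7% for Acot2 and 56.9% for Slc27a1, against medians of 53.1% in 426 lower and 47.4% in 444 higher protein-coding genes of the table. The part of base composition in their values was not tested.

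The cell identity can be checked only in part, because the table does not hold all genes. Of 15 listed microglial markers 2 were in it, Cx3cr1 and P2ry12, whose summed level was 0.79 to 1.08 FPKM in control and 2.81 to 3.17 in OGD/R libraries. Of 35 markers of other cell types 3 were in it, and all had the lower mean after OGD/R, as had 623 of the 1228 genes in all. Vwf stood at 3.22 to 4.40 FPKM in control and 1.10 to 1.74 in OGD/R libraries. Tubb3 was at 0.56 to 1.17 and 0.00 to 0.37, and Cspg4 at 0.08 to 0.09 and 0.00 to 0.03. Tubb3 and Cspg4 were too low to be tested. The table held none of the 5 markers of adipocytes and hepatocytes, cells rich in fatty acid genes. The part of other cells in the values of Acot2 and Slc27a1 was not tested.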

How the data were processed

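RNA of Bv2 cells was sequenced in 6 libraries. The values are FPKM as deposited by the authors, in 1 table of 1228 genes with a column per sample, per the file headers. Per the submitters' processing notes the build was GRCm38. Of the aligner, counter, annotation and selection of genes, nothing is stated in the sources used here. GENCODE M21 placed 1227 genes. Paired reads of 150 nt were sequenced, per the labels' protocols.

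Genes with a mean of at least 1 FPKM entered a two-sided limma test (version 3.58.1, R 4.3.3; group as the only factor, eBayes with trend) of log2(FPKM + 1). Its 852 p-values were adjusted by the Benjamini-Hochberg method, with a threshold of 0.05. The pseudocount of 1 understates the change of low genes. On simulated data for this comparison with 852 genes, the test called 100% of simulated 2-fold changes, 100% of 4-fold changes and 0.767% of genes without a change. The simulation gave every gene the same spread, the median of the tested genes, and left most genes unchanged. In the data the spread differed between genes (SD 0.41 for Acot2, 0.12 for Slc27a1) and most genes were called. The simulated rates therefore do not give the rate of missed or false calls in these data.

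Counted units were recovered from the steps of FPKM values under 15 units, called whole within rounding plus 0.03 units. Library sizes were 7628000 to 8247000 units in control and 8030000 to 8666000 in OGD/R libraries, with 96.5% to 99.5% of values whole. At the best other size compared, 27.9% to 48.8% were whole. That comparison left out sizes close to the chosen one and much larger ones, its multiples included.

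Members, gene lists and motifs were chosen with earlier results of these data known. Named are the members, every listed fatty acid gene in the table, table genes within 500 kb of a member, and the 5 tested genes nearest in profile to each member (of which 1 is not reported here), leaving out names without a symbol and those of the Gm, Rik or -ps kind. Alternatives were other pseudocounts and filters, 2 scalings, other eBayes settings, leaving out each library and a replicate block. Sequences and figures were handled in Python 3.11.15 (Biopython 1.88, matplotlib 3.10.9, numpy 2.4.6, pandas 2.3.3, scipy 1.17.1).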

Additional observations from a re-analysis of the deposited data

How the results depend on the processing

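Acot2 and Slc27a1 were lower in OGD/R under all 10 alternatives run for each. The Acot2 difference moved by less than the spread between libraries in each of them, at -2.21 with upper quartile scaling, -2.63 with a pseudocount of 0.01, and -2.17 to -2.58 without any 1 replicate. The Slc27a1 difference was -0.76 with upper quartile scaling, a move larger than its spread between libraries (SD 0.12). In its other alternatives it moved by less than that spread. Upper quartile scaling moved the median of all tested genes by 0.13. Relative to that median the Slc27a1 difference was -0.28 before and -0.21 after, and the Acot2 difference -1.72 and -1.66. Of the tested genes 97.3% were called different, so neither their median nor their upper quartile marks an unchanged level. The Slc27a1 difference was -0.91 to -1.02 without any 1 replicate. The difference between the members, -1.44, was -1.14 to -1.68 without any 1 replicate.

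Of the other fatty acid genes 2 were called higher and 1 lower. With no filter on low values these were 4 and 2, since Mlxipl, Nr4a3 and Acot11 were then tested, and with a mean of at least 5 FPKM 1 was higher. The number lower was 1 to 2 without any 1 replicate, 2 without OGD/R replicate 1, 2 or 3, where Acot11 passed the minimum. The number of genes called was 829, and 409 with a mean of at least 5 FPKM, where 423 were tested, and 786 to 831 without any 1 replicate. With the replicate number as a block 835 genes were called, and 2 and 1 fatty acid genes as before. For replicates 1, 2 and 3 the control and OGD/R deviations from the group means had correlations of 0.428, -0.349 and 0.375. Between unequal replicate numbers they ran from -0.628 to 0.479. With 3 samples per group these values cannot decide whether the numbers pair the samples, and the main fit used no pairing.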

Other observations

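Of 45 annotated genes within 500 kb of Acot2, none was in the table. Of 53 around Slc27a1, 2 were. Both rose, where 46.6% of all tested genes were called higher, so nothing is read from their direction. Cyp4f18, a cytochrome P450 of the family that hydroxylates fatty acids and leukotrienes, lies on chromosome 8 from 71988482 to 72009626 and rose from 3.45 ± 0.381 to 8.12 ± 1.31 FPKM (SD, n = 3), with adjusted p = 0.00053 in limma and a log2 fold change of 1.03. Abhd8, of the alpha/beta hydrolase fold family, rose from 2.09 ± 0.0416 to 4.39 ± 0.503 FPKM (log2 fold change 0.80, limma adjusted p = 0.00053).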
